A study of Mus musculus with 24 samples.

Results

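A set of 10 genes of adult hippocampal neurogenesis was described over 4 time points in wild-type (WT) and Tob-knockout (Tob-KO) mice, out of 47593 genes in the count table. The 10 genes are Mki67, Top2a, Eomes, Neurod1, Sox4, Sox11, Nhlh1, Igfbpl1, Tubb2b and Dcx. They were found by symbol, and each matched 1 row. Nhlh1 and Tubb2b were chosen by their measured level, since both were higher in Tob-KO than in WT mice at 3 h. Their 3 h values are therefore given as a description, with no p-value, and the 3 h difference between genotypes is treated the same way for the other 8 genes. The calls counted in that contrast are no evidence for the genes it chose.

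The libraries came from the hippocampi of male C57BL/6J mice of 8 to 12 weeks. The 4 WT groups and the 4 Tob-KO groups were either naive or killed after fear conditioning, with a delay of 15 min, 1 h or 3 h. In fear conditioning, mice receive foot shocks in a chamber whose context they learn to fear. Each group had 3 mice. For the making of the Tob-KO line the study refers to earlier work, and the allele itself is not given in the sources used here. The data were used to ask how loss of TOB, an anti-proliferative protein induced by stress, alters the early hippocampal transcriptome after an aversive event.

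New granule neurons are born throughout adult life in the subgranular zone of the dentate gyrus. Stem cells there divide and give rise to intermediate progenitors, which express Eomes (Tbr2), then to neuroblasts that switch on Neurod1, Sox4, Sox11 and Dcx, and these mature into granule neurons over several weeks. Mki67 and Top2a mark the dividing cells of this series. In whole hippocampus such cells are few, so that in these bulk libraries fewer cells of a type and less RNA per cell cannot be told apart.

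Each library held 28847989 to 41595972 counts (median 31169386). Before any direction is drawn, the targeted gene has to be given: Tob1 was higher, not lower, in the libraries labelled Tob-KO. In naive mice it was at 52.0, 55.4 and 52.8 CPM (read counts after scaling each library with edgeR's TMM factors) in libraries labelled Tob-KO, against 43.1, 37.5 and 33.7 CPM in WT. Over naive mice, 15 min and 1 h its log2 fold change was 0.59 (SE 0.045), with an adjusted p of 6.61e-07 by edgeR's quasi-likelihood test. Whether the counted reads come from outside the deleted part was not tested, and "Tob-KO" below stands for libraries labelled so. Another feature of the series was the choroid plexus, the epithelium that makes cerebrospinal fluid. The summed level of its 10 markers ran from 26.1 CPM in a WT library at 15 min to 4910 CPM in a naive Tob-KO library, and all 3 WT libraries at 15 min were at 43.2 CPM or less.

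All 10 genes were counted in every library and all 10 passed the filter on low counts in each comparison. To compare levels between genes, CPM was divided by the length of the annotated exons in kilobases. Tubb2b, a neuronal beta-tubulin of growing axons, stood first at 67.9 CPM per kb, above 97.3% of the 18635 genes ranked this way. Which cells its reads came from, immature neurons or others, was not tested. Neurod1 (7.55 CPM per kb), Sox4 (5.57), Sox11 (2.67), Dcx (1.97) and Igfbpl1 (1.47) followed in that order. Nhlh1 (0.487 CPM per kb), Eomes (0.397), Top2a (0.206) and Mki67 (0.195) were lowest. Of the 9 neighbouring pairs in this order, 7 had ranges over the 24 libraries that overlapped. The exceptions were Tubb2b against Neurod1 and Sox4 against Sox11. Mki67 and Top2a, the markers of dividing cells, could not be ordered against each other.

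**Figure D1:**
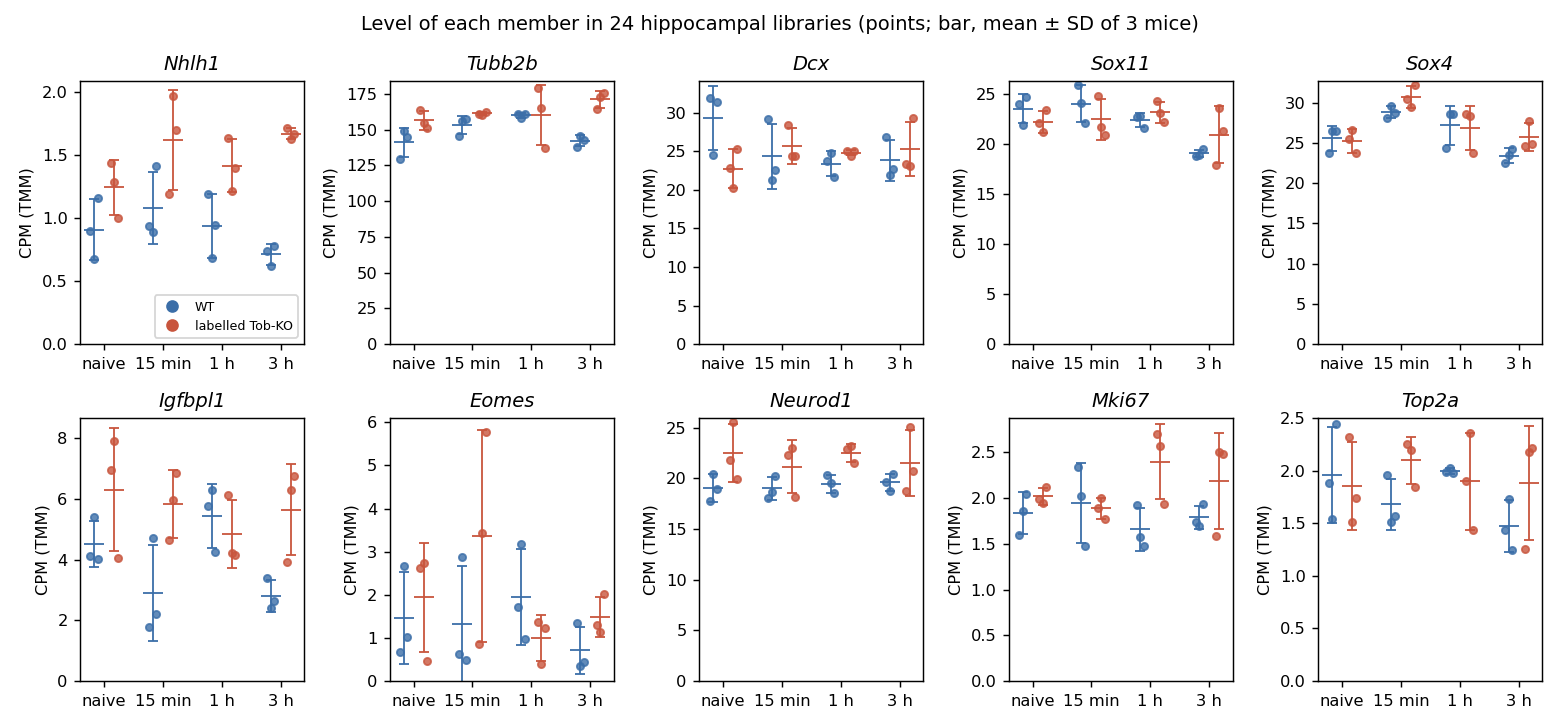
Level of the 10 genes in TMM-scaled CPM (y axes from 0) for naive mice and the 15 min, 1 h and 3 h groups. Points are libraries (blue WT, red labelled Tob-KO), and bars are the mean ± SD of 3 mice. At 3 h the 3 Nhlh1 points of the Tob-KO libraries lie between 1.63 and 1.72 CPM and those of WT between 0.623 and 0.780 CPM, whereas Eomes runs from 0.346 to 5.78 CPM over all libraries.

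Mki67 and Top2a mark cells in cycle. Mki67, whose protein Ki-67 coats mitotic chromosomes, lies on chromosome 7 of GRCm38 from 135689784 to 135716361. Top2a, the topoisomerase that untangles replicated DNA, lies on chromosome 11 from 98992943 to 99024189, 4.78 Mb from Tob1. In cell-cycle genes, CCAAT boxes bound by NF-Y and the cell-cycle homology region (CHR), bound by DREAM and MuvB complexes, are known promoter elements. The 250 bases before each start are shown because both promoters hold both elements. Capitals mark the letters CCAAT and TTTGAA, searched on both strands, so that they also appear as ATTGG and TTCAAA. Both sequences are RefSeq windows of GRCm38.p6 on the minus strand, read 5′ to 3′, at chr7:135716380-135716629 and chr11:99024190-99024439.

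Mki67: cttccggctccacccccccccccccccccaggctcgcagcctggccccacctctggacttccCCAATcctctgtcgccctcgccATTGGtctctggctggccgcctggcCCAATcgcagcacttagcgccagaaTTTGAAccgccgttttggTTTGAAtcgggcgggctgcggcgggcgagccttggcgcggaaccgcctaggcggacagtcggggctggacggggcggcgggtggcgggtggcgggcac

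Top2a: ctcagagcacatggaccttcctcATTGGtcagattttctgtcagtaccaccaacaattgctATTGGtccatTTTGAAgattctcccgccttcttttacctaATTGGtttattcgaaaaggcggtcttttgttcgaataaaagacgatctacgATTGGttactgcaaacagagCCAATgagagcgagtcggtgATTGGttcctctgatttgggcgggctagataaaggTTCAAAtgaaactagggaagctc

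Mki67 held 3 CCAAT matches and 2 TTTGAA matches, and Top2a held 6 and 2. Of the other members with a window, Sox11 also held both, with 1 match of each. Of 32851 mouse promoter windows of the same length, 33.8% held at least 1 CCAAT match and 16% at least 1 TTTGAA match, while 10.1% and 1.81% held 2 or more. Among 15 other cell-cycle genes with a window, 13 held CCAAT and 5 held TTTGAA. How many windows held both elements was not counted. These are matches of letters, and no binding was measured.

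Mki67 was low and even between mice, with an SD on the log2 scale within groups of 0.222, above that of 20.4% of the 500 genes nearest to it in level. Naive WT mice had 1.60, 1.86 and 2.05 CPM of it and naive Tob-KO mice 1.99, 1.95 and 2.13 CPM. Measured 15 min after conditioning, Mki67 was at 2.34, 2.02 and 1.47 CPM in WT mice, compared with 1.89, 2.0 and 1.77 CPM in Tob-KO. The genotypes overlapped at both times. The 1 h groups had 1.92, 1.57 and 1.48 CPM (WT) and 2.70, 2.57 and 1.93 CPM (Tob-KO), where the lowest Tob-KO library lay just above the highest WT library. Mki67 at 3 h measured 1.74, 1.70 and 1.93 CPM in WT mice and 1.58, 2.51 and 2.48 CPM in Tob-KO mice, and the groups overlapped again. These levels rest on 46 to 86 reads per library. Top2a, counted with 38 to 80 reads, ran from 1.25 CPM in a WT library at 3 h to 2.44 CPM in a naive WT library, and its genotypes overlapped at every time point.

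Eomes and Neurod1 mark the step from progenitor to neuroblast. Eomes, a T-box transcription factor of intermediate progenitors that is also made by Cajal-Retzius cells, lies on chromosome 9 from 118478212 to 118486132. An annotated antisense transcript, Gm33460, overlaps it, and the strand setting of the counting is not given in the sources used here. Eomes was by far the most variable of the 10. Among naive mice, WT libraries held 0.674, 2.67 and 1.02 CPM against 2.61, 2.73 and 0.472 CPM in Tob-KO. The 15 min groups had 0.613, 2.88 and 0.481 CPM (WT) and 0.862, 3.44 and 5.78 CPM (Tob-KO). In each of these 4 groups the highest mouse exceeded the lowest severalfold, and the genotypes overlapped. Eomes at 1 h measured 1.71, 3.17 and 0.975 CPM in WT mice and 1.37, 0.382 and 1.23 CPM in Tob-KO mice. At 3 h, the Tob-KO libraries were at 1.29, 1.14 and 2.02 CPM, compared with 1.34, 0.346 and 0.437 CPM in WT, with overlap at both times. From the lowest to the highest library Eomes differed 16.7-fold. Its SD on the log2 scale within groups was 1.07, above that of 98.4% of the 500 genes nearest to it in mean level, whose median SD was 0.306.

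Neurod1, a basic helix-loop-helix (bHLH) factor needed for granule neuron survival and kept on in mature granule neurons, lies on chromosome 2 from 79452521 to 79456751. Cerkl, annotated on the same strand, overlaps it, and how shared reads were assigned is not given in the sources used here. The naive WT libraries were at 17.8, 20.5 and 18.9 CPM, those of Tob-KO at 21.9, 25.6 and 20.0 CPM. Neurod1 at 15 min measured 18.1, 18.7 and 20.3 CPM in WT mice and 22.3, 23.0 and 18.1 CPM in Tob-KO mice. At both times 2 of 3 Tob-KO libraries lay above all WT libraries, and the third lay among them. At 1 h, the Tob-KO libraries were at 22.9, 23.2 and 21.5 CPM, compared with 20.4, 19.5 and 18.6 CPM in WT, with no overlap. Measured 3 h after conditioning, Neurod1 was at 19.7, 18.7 and 20.4 CPM in WT mice, compared with 18.7, 25.1 and 20.8 CPM in Tob-KO, which overlapped. Over naive mice, 15 min and 1 h, 7 of 9 Tob-KO libraries exceeded the highest of the 9 WT libraries. How many of all genes were separated so was not counted.

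Sox4 and Sox11 are SoxC factors that turn on the neuronal programme in committed precursors, where Sox11 also drives Dcx. Sox4 lies on chromosome 13 from 28948919 to 28953713 and overlaps an annotated noncoding RNA on the other strand, Gm26735. Without conditioning, Sox4 measured 23.8, 26.4 and 26.5 CPM in WT mice and 25.5, 26.6 and 23.7 CPM in Tob-KO mice. At 15 min, the Tob-KO libraries were at 30.5, 29.5 and 32.2 CPM, compared with 28.1, 29.5 and 28.8 CPM in WT. Every library at 15 min lay above every naive library. Measured 1 h after conditioning, Sox4 was at 24.4, 28.6 and 28.6 CPM in WT mice, compared with 28.5, 28.3 and 23.7 CPM in Tob-KO. The 3 h groups had 22.5, 23.5 and 24.3 CPM (WT) and 24.7, 27.7 and 24.8 CPM (Tob-KO). Values at 1 h overlapped both those of naive mice and those at 15 min, and at 3 h the genotypes did not overlap.

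Sox11 lies on chromosome 12 from 27334264 to 27342574. Naive mice had 24, 21.9 and 24.6 CPM in WT and 22.1, 21.2 and 23.3 CPM in Tob-KO. At 15 min it ranged from 20.9 to 25.8 CPM and at 1 h from 21.5 to 24.2 CPM over both genotypes. These ranges lie close to those of naive mice. At 3 h, the WT libraries were at 18.8, 18.9 and 19.4 CPM, all below every naive library, and the Tob-KO libraries at 17.9, 23.5 and 21.3 CPM, which spread across the naive range and under it.

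Nhlh1 (NSCL1, HEN1) is a bHLH factor that developing neurons make briefly after they leave the cell cycle. It lies on chromosome 1 from 172052292 to 172057573. Naive WT mice had 0.898, 0.675 and 1.16 CPM of it and naive Tob-KO mice 1.44, 1.29 and 1.00 CPM. Measured 15 min after conditioning, Nhlh1 was at 0.935, 0.892 and 1.41 CPM in WT mice, compared with 1.19, 1.97 and 1.70 CPM in Tob-KO. The genotypes overlapped at both times, with 2 Tob-KO libraries above all WT libraries at each. The 1 h groups had 1.19, 0.684 and 0.944 CPM (WT) and 1.63, 1.22 and 1.40 CPM (Tob-KO), without overlap. Nhlh1 at 3 h measured 0.737, 0.623 and 0.780 CPM in WT mice and 1.72, 1.63 and 1.67 CPM in Tob-KO mice. These are the libraries that chose Nhlh1. Both groups were tight at 3 h, where SDs of 0.0809 and 0.0448 CPM were smaller than at any other time. The level rests on 18 to 71 reads per library.

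bHLH factors bind E-boxes, with the letters CANNTG. The 250 bases before the Nhlh1 start are shown because Nhlh1 was chosen by its 3 h difference. They are a RefSeq window of GRCm38.p6 at chr1:172057597-172057846 on the minus strand, with E-box letters in capitals.

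Nhlh1: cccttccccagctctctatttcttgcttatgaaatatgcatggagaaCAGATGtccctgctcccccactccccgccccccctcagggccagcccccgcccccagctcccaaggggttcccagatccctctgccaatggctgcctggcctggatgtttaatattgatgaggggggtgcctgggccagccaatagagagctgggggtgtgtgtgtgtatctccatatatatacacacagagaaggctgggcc

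This window held 1 E-box match, and 66.2% of the 32851 windows held at least 1. It held 2 CCAAT matches and no TTTGAA match. RefSeq windows were found for 8 of the 10 genes, and those of Tubb2b and Igfbpl1 were not analysed here.

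Tubb2b, Dcx and Igfbpl1 are made by neurons that extend processes and migrate. Tubb2b lies on chromosome 13 from 34126748 to 34130466. Among naive mice, WT libraries held 129.7, 148.7 and 145.0 CPM against 163.7, 154.7 and 151.2 CPM in Tob-KO. The 15 min groups had 145.7, 155.9 and 157.6 CPM (WT) and 161.2, 160.5 and 162.1 CPM (Tob-KO). At both times the lowest Tob-KO library exceeded the highest WT library by less than the SD of the WT libraries. Tubb2b at 1 h measured 161.1, 158.0 and 161.2 CPM in WT mice and 178.8, 164.8 and 137.4 CPM in Tob-KO mice, and the Tob-KO libraries lay on both sides of WT. At 3 h, the Tob-KO libraries were at 164.6, 173.1 and 175.5 CPM, compared with 138.0, 145.8 and 143.0 CPM in WT. As a transcript with close relatives among the beta-tubulins, its counts can hold or lose reads shared with them.

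Dcx, the microtubule-binding doublecortin that is the standard marker of migrating neuroblasts, lies on chromosome X from 143855842 to 143933311. The naive WT libraries were at 31.9, 24.5 and 31.4 CPM, those of Tob-KO at 22.8, 20.2 and 25.2 CPM. Dcx at 15 min measured 29.2, 21.3 and 22.6 CPM in WT mice and 28.3, 24.3 and 24.4 CPM in Tob-KO mice. Naive WT held the 2 highest libraries of all 24, and the genotypes overlapped at both times. At 1 h, the Tob-KO libraries were at 25.0, 24.4 and 25.0 CPM, compared with 23.8, 24.8 and 21.6 CPM in WT. Measured 3 h after conditioning, Dcx was at 26.9, 21.9 and 22.7 CPM in WT mice, compared with 23.4, 23.1 and 29.4 CPM in Tob-KO, and the genotypes overlapped here too.

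Igfbpl1, a secreted protein related to insulin-like growth factor binding proteins and found in immature neurons, lies on chromosome 4 from 45809468 to 45826923. Without conditioning, Igfbpl1 measured 4.13, 5.40 and 4.03 CPM in WT mice and 6.96, 7.92 and 4.04 CPM in Tob-KO mice. At 15 min, the Tob-KO libraries were at 4.64, 5.97 and 6.86 CPM, compared with 1.78, 4.70 and 2.21 CPM in WT. A single WT library stood above the other 2 at 15 min and reached the Tob-KO range, so that the genotypes overlapped at both times. Measured 1 h after conditioning, Igfbpl1 was at 5.77, 6.28 and 4.25 CPM in WT mice, compared with 6.13, 4.20 and 4.17 CPM in Tob-KO, which overlapped. The 3 h groups had 3.38, 2.39 and 2.62 CPM (WT) and 3.93, 6.28 and 6.74 CPM (Tob-KO), with no overlap.

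To ask whether the genotypes differ in these genes apart from the 3 h libraries, Tob-KO and WT were compared at each time with edgeR's exact test, where a call needs a Benjamini-Hochberg FDR of 0.05 or less and a fold change of 2 or more. None of the 10 genes was called in naive mice, at 15 min or at 1 h. The test called 0.0218%, 0.55% and 0.033% of all genes tested at these times. The members with an unadjusted p under 0.05 numbered 1 in naive mice (Dcx, lower), 1 at 15 min (Igfbpl1, higher) and 3 at 1 h (Nhlh1, Neurod1 and Mki67, higher). Over all genes, 744 of 18364, 1479 of 18364 and 966 of 18169 had such a p at these times by the exact test. DESeq2 called none of the 10 at any of these times, and 5, 35 and 4 of all genes. The libraries of the genotypes did not overlap for 1 member in naive mice, 1 at 15 min and 3 at 1 h, against 11.4%, 13.5% and 11.5% of all genes tested.

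Pooling the 9 Tob-KO and 9 WT mice of naive, 15 min and 1 h in 1 quasi-likelihood fit, with time as a factor and no fold limit, called none of the 10, against 0.0622% of 19281 genes. DESeq2 called 1 of them, Neurod1, where it called 206 of all genes. Nhlh1 had the largest fold change of the 10: its level was 0.976 ± 0.239 CPM in WT and 1.43 ± 0.299 CPM in Tob-KO (SD, n = 9 each), all 9 Tob-KO libraries lay above the WT median, and 4 lay above the highest WT library. Its log2 fold change was 0.55 (SE 0.147, 95% interval 0.24 to 0.86), with an unadjusted p of 0.00145 and an adjusted p of 0.161 by the quasi-likelihood test over all genes. For these counts of Nhlh1 libraries the share over all genes was not computed. Neurod1 was 19.2 ± 1.01 CPM in WT and 22.1 ± 2.11 CPM in Tob-KO, a log2 fold change of 0.20 (SE 0.053), with an adjusted p of 0.158 in the same quasi-likelihood fit. DESeq2 gave Neurod1 the same log2 fold change of 0.20 with an adjusted p of 0.0439. Igfbpl1 followed with 0.43 (SE 0.201), an unadjusted p of 0.0442 and an adjusted p of 0.353 by the quasi-likelihood test.

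For the remaining 7 genes the pooled difference was smaller than these relative to its error. The 95% intervals ran from -0.24 to 0.10 for Dcx, from -0.14 to 0.05 for Sox11, from -0.08 to 0.12 for Sox4 and from -0.01 to 0.16 for Tubb2b, and no interval of Sox11, Sox4 or Tubb2b held a log2 change of more than 0.16 in size. For Eomes the interval ran from -0.70 to 1.33, which leaves changes in either direction undetectable here. Mki67 had a log2 fold change of 0.21 (SE 0.115) and Top2a of 0.05 (SE 0.124). Over the 10 genes 8 fold changes were positive and the median was 0.14, against a median of -0.005 over all genes tested.

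**Figure D2:**
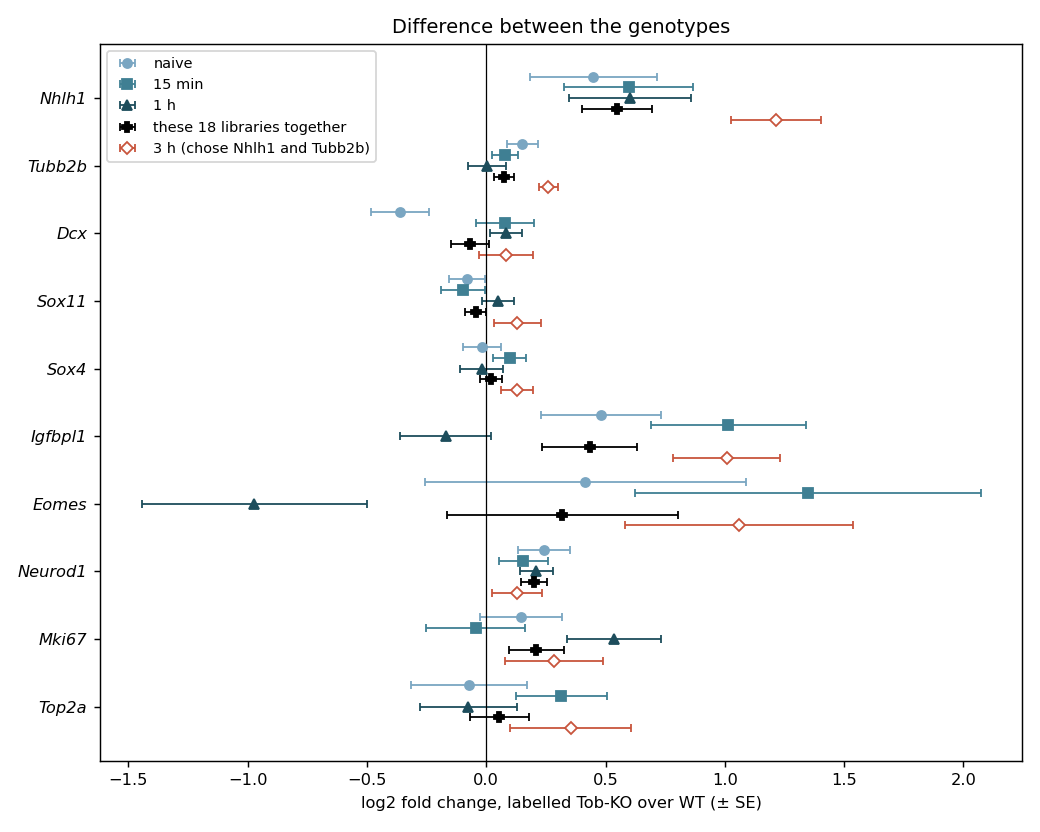
Log2 fold change of Tob-KO over WT (x axis) for each of the 10 genes at each time and over the 18 libraries of naive, 15 min and 1 h, with bars of 1 standard error. Open red diamonds are the 3 h values that chose Nhlh1 and Tubb2b. Nhlh1 is positive at every time, with 0.55 over the 18 libraries, while Eomes turns from 1.35 at 15 min to -0.97 at 1 h with wide bars.

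The differences at single times show how uneven they were. Igfbpl1 at 15 min had a log2 fold change of 1.01 (SE 0.324), with an adjusted p of 0.182 by the exact test, and of -0.17 (SE 0.190) at 1 h. Eomes had 1.35 (SE 0.724) at 15 min and -0.97 (SE 0.472) at 1 h. WT replicate 2 at 15 min held 4.70 CPM of Igfbpl1 and 2.88 CPM of Eomes, the highest of its group for both. Without it, the exact test called both genes higher in Tob-KO at 15 min, with log2 fold changes of 1.56 and 2.62. With all libraries, that test called 101 of 18364 genes at 15 min, 83 higher and 18 lower in Tob-KO. The share called without this library is not given here, so nothing is read from these 2 calls. The choroid plexus markers moved with genotype at the same time: all 10 of 10 were called higher in Tob-KO at 15 min, with a median log2 fold change of 4.56. With their summed level as a covariate, the 18-library log2 fold change was 0.48 for Nhlh1, 0.20 for Neurod1 and 0.37 for Igfbpl1, with quasi-likelihood adjusted p of 0.62, 0.538 and 0.742, and none of the 10 was called.

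The 3 h difference between genotypes is the one that chose Nhlh1 and Tubb2b. Of all 18255 genes 0.0274% passed the call rule there, Nhlh1 among them by that choice, and nothing is read from it. The log2 fold changes at 3 h were 1.21 for Nhlh1, 1.06 for Eomes, 1.01 for Igfbpl1, 0.35 for Top2a, 0.28 for Mki67 and 0.26 for Tubb2b. Sox11, Neurod1, Sox4 and Dcx lay between 0.08 and 0.13. All 10 were positive, Nhlh1 and Tubb2b by their choice, with a median of 0.27, against -0.002 over all genes tested. Some lists described below were also positive throughout at 3 h. These were 15 of 15 stem and progenitor, 8 of 8 oligodendrocyte precursor, 8 of 8 ventricular-zone neuroblast and 4 of 4 endothelium genes. Of the cell-cycle genes 11 of 18 were positive, and of the blood genes 0 of 5. A positive sign throughout was thus not particular to the 10 genes. Between genotypes, 4 genes did not overlap at 3 h (Nhlh1, Tubb2b, Sox4 and Igfbpl1), against 12.2% of all genes. Nhlh1 and Tubb2b were chosen by this difference, so only Sox4 and Igfbpl1 can be set against that share. Mean WT levels at 3 h were the lowest of the 4 WT groups for Sox11, Sox4, Igfbpl1, Eomes and Top2a. They were so for Nhlh1 too, but its choice favours low WT and high Tob-KO values at 3 h. The Nhlh1 group mean was 0.910 ± 0.241 CPM in naive WT and 0.713 ± 0.0809 CPM at 3 h (SD, n = 3). In Tob-KO it was 1.24 ± 0.220 and 1.67 ± 0.0448 CPM, and nothing is read from these Nhlh1 values. The choroid plexus markers ran the other way at 3 h, with 10 of 10 lower in Tob-KO by value and a median of -1.08, none of them called.

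To ask how the genes respond to conditioning, each time was compared with naive mice in a quasi-likelihood fit of all 24 libraries. At 15 min, Sox4 rose in the 2 genotypes pooled. Its mean was 25.6 ± 1.53 CPM in naive WT and 28.8 ± 0.736 CPM at 15 min, and 25.2 ± 1.45 and 30.7 ± 1.36 CPM in Tob-KO (SD, n = 3). The log2 fold change was 0.23 (SE 0.055, 95% interval 0.11 to 0.34), with an adjusted p of 0.0234 by the quasi-likelihood test. It was the only call among the 10 at 15 min, when 4.35% of 19500 genes were called, so nothing particular to these 10 genes is read from 1 call. Taken alone, WT gave 0.17 (SE 0.079, adjusted p 0.571) and Tob-KO 0.29 (SE 0.078, adjusted p 0.0544), in comparisons that called 0.0462% and 2.51% of genes. The difference between these 2 responses was 0.12 (SE 0.111, adjusted p 0.983), all by the same quasi-likelihood fit.

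Endothelial markers rose at 15 min as well: Cldn5, a tight-junction protein, by a log2 fold change of 0.85 and Flt1, a VEGF receptor, by 0.42, which made 2 of 4 endothelial genes called. Their summed level ran from 86.1 to 119 CPM in naive mice and from 126 to 198 CPM at 15 min. With this level as a covariate, the log2 fold change of Sox4 was still 0.23, but its quasi-likelihood adjusted p was 0.522 and only 9 genes of all were called. The level did not overlap between naive mice and 15 min, so this fit can hardly separate it from time. Nothing is therefore read from the lost call. With the choroid plexus level as the covariate the log2 fold change of Sox4 was 0.20, with an adjusted p of 0.0407 in the quasi-likelihood fit.

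Igfbpl1 had a log2 fold change of -0.38 (SE 0.213) and Nhlh1 of 0.32 (SE 0.173) at 15 min, neither called. Eomes had 0.33 (SE 0.520) and Tubb2b 0.08 (SE 0.048). Dcx, Sox11, Neurod1, Mki67 and Top2a lay between -0.05 and 0.02, with 95% intervals of -0.10 to 0.14 for Sox11 and -0.20 to 0.10 for Neurod1. At 1 h none of the 10 was called, against 5.89% of genes. Of the 10, Tubb2b alone had an unadjusted p under 0.05 there, as did 3847 of all 19500 genes. Its log2 fold change was 0.11 (SE 0.048, quasi-likelihood adjusted p 0.205). In WT taken alone, Tubb2b at 1 h was 0.18 (SE 0.068, adjusted p 0.307) and Dcx -0.32 (SE 0.122, adjusted p 0.312), where 0.185% of genes were called by this fit. In Tob-KO alone no gene of the 10 had an unadjusted p under 0.05 at 1 h, when 1.13% of genes were called. Such a p was held by 3037 of all 19500 genes in that comparison. DESeq2 called none of the 10 at 1 h, against 1497 genes in both genotypes together, 180 in WT and 686 in Tob-KO.

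At 3 h, no gene of the whole table was called against naive mice by the quasi-likelihood test (0% in both genotypes together, in WT and in Tob-KO), while 1746, 779 and 2071 genes had an unadjusted p under 0.05 and DESeq2 called 22, 0 and 27. Of the 8 genes that 3 h did not choose, Eomes and Igfbpl1 had the lowest log2 fold changes over naive mice in both genotypes together, at -0.70 (SE 0.554, quasi-likelihood adjusted p 0.716) and -0.43 (SE 0.213, adjusted p 0.571). Sox11 had the smallest p of the 8 there, with a log2 fold change of -0.20 (SE 0.059, adjusted p 0.407) in both genotypes, -0.31 (SE 0.084, adjusted p 1) in WT and -0.09 (SE 0.084, adjusted p 0.706) in Tob-KO, by the same quasi-likelihood fit.

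**Figure D3:**
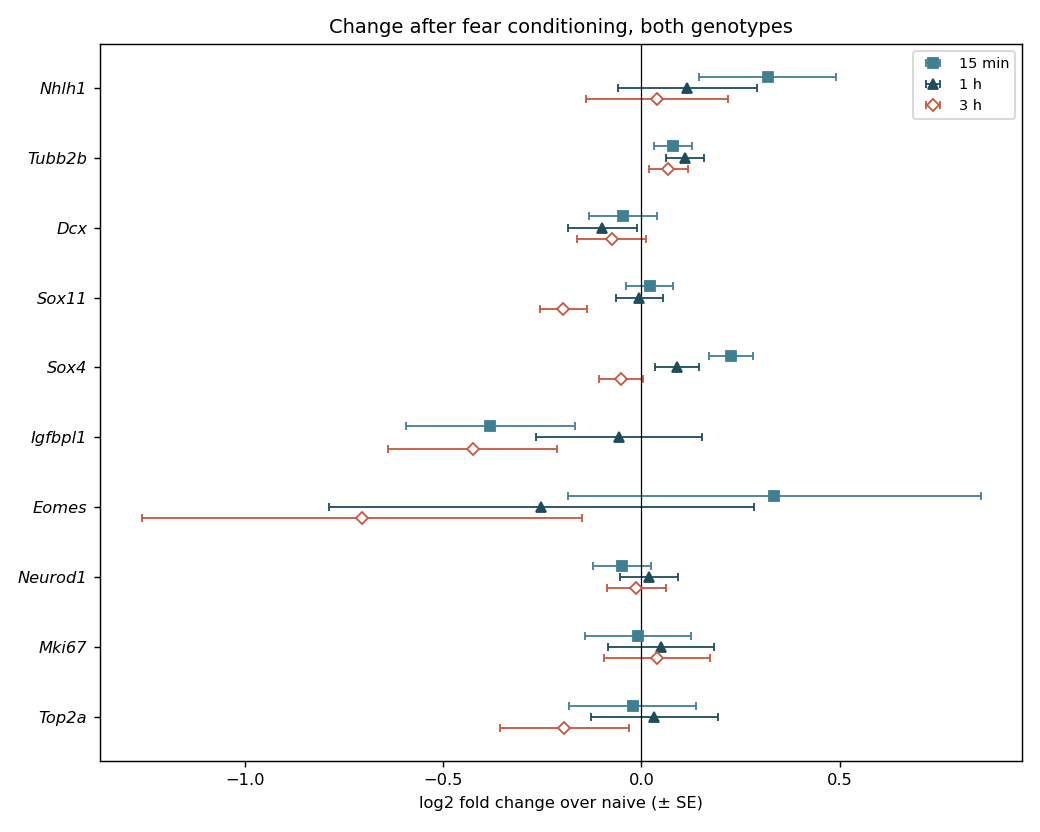
Log2 fold change over naive mice (x axis) for each of the 10 genes at the 3 times after conditioning, in both genotypes together, with bars of 1 standard error. Sox4 at 15 min, at 0.23, was the only value past the test, and the values of Nhlh1 and Tubb2b at 3 h are shown without a test.

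The difference of genotype effects between times was tested as an interaction. It was called for no gene of the table at 15 min or 1 h by the quasi-likelihood test (0% of 19500 genes each, with 939 and 809 at an unadjusted p under 0.05) and for none by DESeq2. Dcx had the smallest unadjusted p of the 10. It was lower in Tob-KO than in WT in naive mice, with a log2 fold change of -0.36 (SE 0.123, adjusted p 1 by the exact test), and 0.08 (SE 0.121) at 15 min and 0.08 (SE 0.067) at 1 h. The interaction was 0.44 (SE 0.173, adjusted p 0.981) at 15 min and 0.45 (SE 0.173, adjusted p 0.999) at 1 h in the quasi-likelihood fit. Both share the naive libraries, among them the naive WT libraries at 31.9 and 31.4 CPM.

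Whether the 10 genes vary as 1 group between mice was examined on the deviations of log2 CPM from group means over 24 libraries, for 45 pairs with 100000 permutations within groups. The median Pearson r was 0.15, and 1 pair passed at an adjusted p of 0.05. This pair was Igfbpl1 with Eomes, with r = 0.83 (permutation p = 0.0002, adjusted p = 0.009) and Spearman's rho = 0.82 (permutation p = 0.00011, adjusted p = 0.00495). Without the 2 libraries farthest from the Igfbpl1 median r was 0.77, and with the 2 farthest libraries left out of each pair 0 of the 45 pairs passed by permutation, this one included. Sox11 with Mki67 followed, with r = 0.73 (permutation p = 0.0042, adjusted p = 0.0945) and rho = 0.69 (adjusted permutation p = 0.092), and r was 0.60 without the 2 farthest libraries. Tubb2b with Sox4 had r = 0.66, Sox11 with Top2a 0.65 and Mki67 with Top2a 0.59, none past the adjusted threshold by permutation (adjusted p 0.138, 0.138 and 0.234). The lowest r was -0.42, between Dcx and Sox4 (adjusted permutation p = 0.234). Eomes had an r of 0.04 with Mki67 and -0.27 with Top2a.

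**Figure D4:**
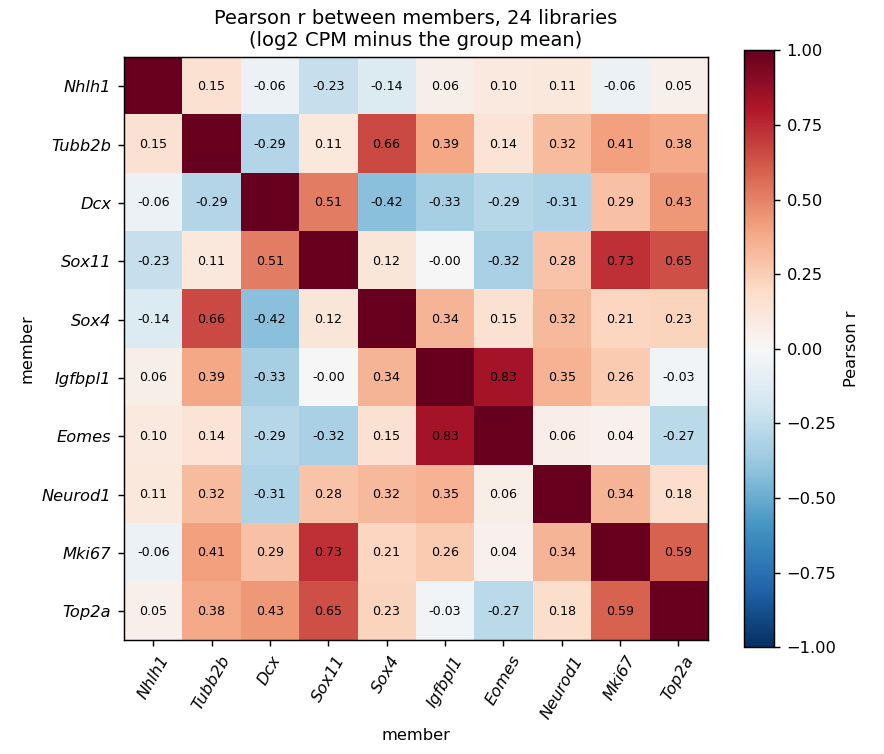
Pearson r between each pair of the 10 genes (both axes) over 24 libraries, from log2 CPM minus the group mean, with red for positive and blue for negative values. Igfbpl1 with Eomes, at 0.83, is the highest of the 45 pairs, and Sox11, Mki67 and Top2a have 0.73, 0.65 and 0.59 among themselves.

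**Figure D5:**
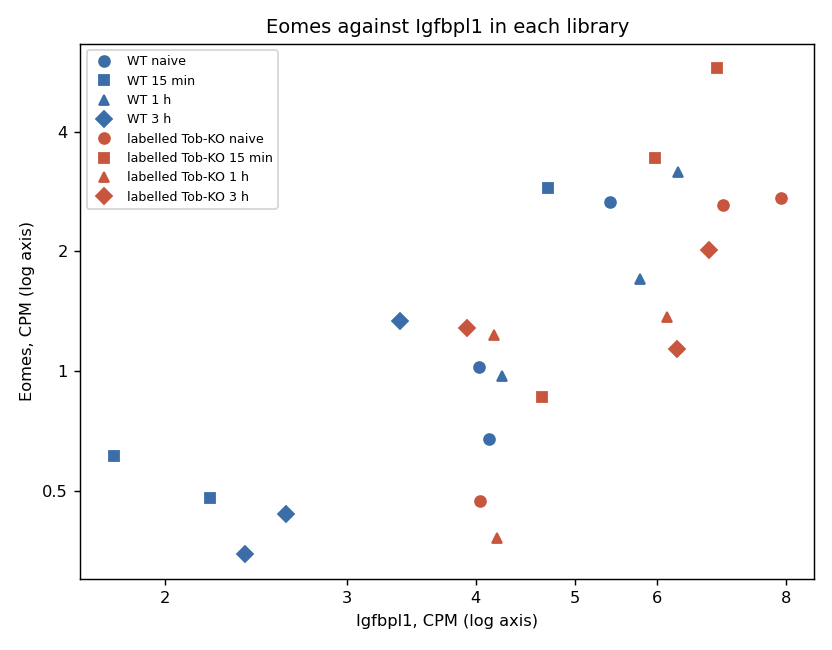
Eomes against Igfbpl1 in each of the 24 libraries, in CPM on log axes, with colour for genotype and shape for time. Libraries with Igfbpl1 under 3 CPM all lie at or under 0.613 CPM of Eomes, and those with Igfbpl1 above 5 CPM all lie at or above 1.14 CPM.

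The genes most like a member were ranked among 19490 tested genes by the Pearson r of the same deviations, as a description. For Eomes and Igfbpl1, added after their values were seen, they were Cacng5 (r = 0.91), Ebf2 (0.91), Gm43398 (0.90), Grk5 (0.90) and Ebf3 (0.90), and Cldn19 (0.87), Prkcd (0.87), A230065H16Rik (0.87), Gm43398 (0.87) and Isl1 (0.86). Ebf2 ranged from 0.064 to 3.60 CPM over the libraries and Isl1 from 0 to 2.92 CPM. Ebf3 was on the list of Cajal-Retzius markers and Prkcd on that of thalamus and habenula, regions next to the hippocampus. The summed thalamus and habenula list ran from 38.0 CPM in a WT library at 15 min to 78.0 CPM in a Tob-KO library at 15 min, where Prkcd was called higher in Tob-KO (log2 fold change 1.08). Of the 7 genes of this list tested there, 5 were higher in Tob-KO by value, with a median log2 fold change of 0.36. Pou4f1, a habenula marker, was the only 1 of its 8 genes below 0.2 CPM in every library. The Cajal-Retzius list ran from 125 to 199.8 CPM, with no gene at 0. The part of neighbouring tissue in the Eomes and Igfbpl1 values was not tested.

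Of the other members, Dcx was closest to Clca3a1 (r = 0.83), Rnf217, Pura, Chrm4 and Papln (0.78). Nhlh1 was closest to D11Wsu47e (r = 0.80), Gm43146, Aldh9a1, Hmgxb4 and Gm26559 (0.76). Tubb2b was closest to Kif20a (r = 0.78), Gm2423, D930048G16Rik, Supt3 and Aff3 (0.76), and Mki67 to Prkd3 (r = 0.79), Auts2, Nol4l, D16Ertd472e and A430057M04Rik (0.735). None of these is a gene of the lists below. Neurod1 and Sox4, added after seeing values, were closest to Bhlhe22 (r = 0.90), an immature-neuron list gene kept on in granule neurons, and to Tstd1 (r = 0.835).

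Other genes of the pathway were counted in the same fits, from lists chosen with earlier results of these data known. Of 18 further cell-cycle genes, none was called between genotypes over the 18 libraries and 13 were higher in Tob-KO by value, with a median log2 fold change of 0.06. Cdk1, the mitotic kinase, had 0.65 (SE 0.266) and Ube2c, a mitotic ubiquitin-conjugating enzyme, -0.60 (SE 0.273). None of the 18 was called at 15 min or 1 h against naive mice, where the medians were -0.01 and -0.039. Their summed level stayed within 72.2 to 85.7 CPM over all libraries.

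The 15 stem and progenitor genes are described only, since their list was chosen with earlier results of these data known. Of the 15, 6 rose at 15 min in both genotypes together, against 4.35% of all genes. They were Fabp7, a brain lipid-binding protein of radial glia (log2 fold change 0.51, SE 0.113), Nes, the intermediate filament nestin (0.44, SE 0.082), Sox2 (0.41, SE 0.083), Pax6 (0.36, SE 0.080), Gadd45g (0.31, SE 0.075) and Lpar1 (0.26, SE 0.058). The quasi-likelihood adjusted p ran from 0.00553 to 0.0234. Of these, Nes is also made by endothelium and Lpar1 by oligodendrocytes, and Gadd45g is induced by neuronal activity in mature neurons. Which cells carried the rise of any of the 6 genes, Fabp7, Sox2 and Pax6 included, was not tested. The list's median was 0.26, against 0.002 over all genes. In Tob-KO alone 4 of 15 rose (Nes, Sox2, Pax6 and Lpar1), where 2.51% of all genes were called, and in WT alone none was called, where 0.0462% of all genes were. The list's median log2 fold change was 0.35 in Tob-KO and 0.21 in WT, and the interaction, which tests the difference between genotypes, called none of the 15. At 1 h, 1 of 15 rose (Gadd45g, 0.34, SE 0.075). None of the 15 was called between genotypes over the 18 libraries, with 7 higher in Tob-KO by value and a median of -0.007.

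Of 20 immature-neuron genes, none was called at 15 min, with 12 positive and a median of 0.10. At 1 h, Elavl2, an RNA-binding protein of young neurons, rose (0.14, SE 0.040) and Sox12, the third SoxC factor, fell (-0.29, SE 0.061), and 17 of 20 were positive. Between genotypes none was called over the 18 libraries, 8 of 20 were higher in Tob-KO by value and the median was -0.02. The 7 genes of mature granule neurons were all higher in Tob-KO by value in these libraries, with a median of 0.25 and none called. Dsp, desmoplakin of granule cells, had 0.39 (SE 0.131, quasi-likelihood adjusted p 0.212), Lct 0.34 (SE 0.120), Plk5 0.32 (SE 0.110) and C1ql2, a synaptic organizer, 0.25 (SE 0.110). Their summed level in naive mice was 326, 401.9 and 449.7 CPM from the lowest to the highest WT library and 426, 497 and 562 CPM in Tob-KO. Dsp fell at 15 min in both genotypes together (-0.55, SE 0.156), 1 of 7.

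Markers of other cells that a hippocampal dissection could hold were given for the same contrast. Over the 18 libraries none of the 6 CA pyramidal, 6 Cajal-Retzius, 8 ventricular-zone neuroblast, 8 striatum, 8 oligodendrocyte precursor, 5 microglia, 4 endothelium or 5 blood genes was called, nor any of the 7 thalamus and habenula genes tested. Their medians ran from -0.53 for blood to 0.29 for Cajal-Retzius cells. The choroid plexus list had 10 of 10 positive with a median of 1.82 and none called.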

How the data were processed

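RNA was extracted from mouse hippocampi. Per the labels, poly(A) RNA was purified and made into directional libraries for paired-end sequencing. The authors mapped reads with STAR 2.6.1d to GRCm38, counted them on genes with HTSeq 0.9.0 and deposited whole-number counts, not normalized. The annotation release, strand setting and handling of duplicate reads are not given in the sources used here. The counts have no molecular identifiers, so PCR copies may be included.

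The 10 members and all lists of other genes were chosen with earlier results of these data known. Depth was 28847989 to 41595972 counts per library. Genes with at least 0.2 CPM in 2 libraries were tested with edgeR 4.0.16 (R 4.3.3): the exact test on 6 libraries per time (as in the study's methods, FDR and p at most 0.05, fold change at least 2), and the quasi-likelihood test, FDR at most 0.05, over 18 libraries for genotype and over all 24, with 1 coefficient per group, for time. Standard errors beside exact tests come from a quasi-likelihood fit of the same libraries. The methods were tested on simulated data. P-values were adjusted over all genes tested. Named genes were the 10 members, Tob1, up to 4 list genes with the largest changes, and the 5 genes most like Dcx, Nhlh1, Tubb2b and Mki67. List genes that were called, and the genes most like other members, were also named, after their values were seen. Correlations used log2 CPM with a prior count of 2. Replicate numbers were compared over 28 pairs of groups, and in none did all 3 same-numbered libraries deviate together (r above 0.1), so no pairing was assumed. Alternatives were DESeq2 1.42.0, other scaling, no filter, a replicate block and leaving out each library. Coordinates are from GENCODE's annotation of GRCm38 and promoter sequences from RefSeq on GRCm38.p6, and the annotation used for counting may differ. Figures were drawn with Python 3.11.15 and matplotlib 3.10.9.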

Additional observations from a re-analysis of the deposited data

How the results depend on the processing

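No call of a member turned direction under the alternatives run. Single log2 fold changes of the 10 genes moved by more than 1 standard error in 31 cases without 1 library and 6 under other settings, came past the threshold in 6 and 6, and lost it in 6 and 4, and for these and the counts of genes called below the cause was not tested. For genotype over the 18 libraries none was called. With DESeq2 1 was (Neurod1, adjusted p 0.0439), where 206 of all genes were called. The 1 with all 24 libraries is Nhlh1, chosen by the 3 h libraries that this fit holds, so it is no support. Leaving out single libraries gave Nhlh1 adjusted p of 0.0923 to 0.305 and Neurod1 0.0805 to 0.305 by the quasi-likelihood test. At 15 min between genotypes the count was 0 to 2 without single libraries. At 3 h, the contrast that chose Nhlh1, counts are a description only, and it was 1, and 0 with the quasi-likelihood test both without and with a replicate block, and 0 to 2 without single libraries. For 15 min against naive mice the count of 1 (Sox4) became 0 with the endothelium level as a covariate, which that fit can hardly separate from time. Without single libraries the count was 0 to 1. The Sox4 call was lost without WT replicate 2 at 15 min, Tob-KO replicate 3 at 15 min or naive Tob-KO replicate 3, with quasi-likelihood adjusted p of 0.0663, 0.0716 and 0.0602. In Tob-KO alone the count of 0 became 1 with DESeq2, where 956 of all genes were called. It also became 1 with library size in place of TMM and with the choroid plexus level as a covariate, and 0 to 1 without single libraries. At 1 h against naive mice it was 0 to 1 without single libraries (Tubb2b, without Tob-KO replicate 3 at 1 h). The counts with library size, with the choroid plexus covariate and without single libraries are given without the share of all genes called. Nothing is read from these counts. Of the 45 correlations 1 passed with either scaling and 0 without the 2 farthest libraries. The replicate block changed no other count of members called, and since same-numbered libraries share only a number, this is no weaker effect. Both covariates were chosen after seeing the data. Nhlh1, Eomes, Mki67 and Top2a rest on few reads, which limits their precision.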
